A study of Mus musculus with 5 samples.

Results

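Gene deserts are long stretches of the genome with no protein-coding gene, and the regions described here are sites of open chromatin that lay deep inside them and were strongly open in embryonic mouse forebrain. Each region, called a strong desert region below, met 3 conditions: a forebrain peak with −log10 q of 20 or more in the authors' list, no peak in any of 4 libraries of limb ectoderm, and a midpoint outside and more than 100 kb from every protein-coding gene of the mm10 build. On chromosomes 1 to 19 and X, 2556 of 231437 merged regions met them. Of all merged regions, 76769 (33.2%) carried a forebrain peak without any ectoderm peak, and 10682 (4.62%) did so with a −log10 q of 20 or more. Of these 10682, the 2556 strong desert regions made up 23.9%, beside 21.1% of all merged regions that lay in deserts. The peak calls and positions chose the regions, so they are given as description and support nothing.

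The assay was ATAC-seq, which uses a transposase to cut accessible DNA and tag it for sequencing, on CD1 mouse embryos for which the labels give no mutant allele and no treatment. The groups were forebrain at embryonic stage E13.5 (1 library), and distal ectoderm of the forelimb (2 libraries) and of the hindlimb (2 libraries) at stage E14.5. Forebrain was digested with collagenase once the skull cartilage had been taken off, and ectoderm was freed from the mesoderm below it with trypsin, so tissue, stage and dissociation differed together and cannot be told apart. No test across samples was run, since forebrain has 1 library and the deposited peak values are not comparable between lists, and the labels do not say whether the ectoderm replicates came from separate embryos.

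Sites of open chromatin far from genes include enhancers, which are stretches of DNA that bind transcription factors and can raise transcription of a gene over long distances. Deserts beside genes for developmental transcription factors are known for holding many such enhancers, each active in some of the tissues where the gene is used. A peak alone does not show which gene, if any, a site acts on, so the genes on both sides are given here as position only.

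The forebrain list held 120280 peak intervals and the ectoderm lists 51392 to 78075, and 34221 of the forebrain intervals reached a −log10 q of 20 against 5869 to 18132 in ectoderm. Absence of a peak says only that the authors' caller listed none, not that the site was closed, and a list with fewer peaks leaves more regions without one. Of 10 forebrain marker genes, 10 had a peak summit within 1 kb of either gene end, called a gene-end peak below, in forebrain and 2 to 5 in the ectoderm libraries. Of 10 ectoderm markers, 5 had one in forebrain and 7 to 10 in ectoderm. The keratin genes Krt5 and Krt14 had none in forebrain, and none in 1 of the 2 hindlimb ectoderm libraries either. Markers of other cells had such peaks in forebrain too: 6 of 8 for endothelium and blood, against 3 to 5 in ectoderm, and 6 of 7 for cranial mesenchyme and cartilage, against 2 or 3 in ectoderm. The part of such cells in the strong desert regions was not tested.

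The sequence under a strong desert region could be read where a RefSeq promoter window (250 bases before to 50 bases after a gene's start, build GRCm38.p6) lay there. Such windows of 65 genes overlapped 63 of the 2556 regions, and 38 of the 65 windows also held the summit of the forebrain peak. The 4 windows printed here are lncRNA promoters under regions of high −log10 q, shown because the summit lies inside them. All are written 5′ to 3′ on the strand of the gene, and capitals mark the summit with 30 bases on each side. They are 5330434G04Rik (chrX:105391705-105392004, minus strand), Gm39767 (chr2:21964118-21964417, minus strand), Gm33797 (chr16:62355916-62356215, minus strand) and Gm52725 (chr4:28143104-28143403, plus strand).
5330434G04Rik: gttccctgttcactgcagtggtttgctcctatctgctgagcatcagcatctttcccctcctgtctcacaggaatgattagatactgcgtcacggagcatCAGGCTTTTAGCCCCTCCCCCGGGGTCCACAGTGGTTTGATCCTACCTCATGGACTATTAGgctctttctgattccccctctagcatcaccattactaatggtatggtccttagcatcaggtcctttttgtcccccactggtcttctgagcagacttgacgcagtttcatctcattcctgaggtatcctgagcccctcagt
Gm39767: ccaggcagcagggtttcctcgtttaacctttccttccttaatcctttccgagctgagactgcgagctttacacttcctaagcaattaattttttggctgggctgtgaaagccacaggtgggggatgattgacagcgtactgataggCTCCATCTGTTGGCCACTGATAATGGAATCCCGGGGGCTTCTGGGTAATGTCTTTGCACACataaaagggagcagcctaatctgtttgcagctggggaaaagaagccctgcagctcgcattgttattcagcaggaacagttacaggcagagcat
Gm33797: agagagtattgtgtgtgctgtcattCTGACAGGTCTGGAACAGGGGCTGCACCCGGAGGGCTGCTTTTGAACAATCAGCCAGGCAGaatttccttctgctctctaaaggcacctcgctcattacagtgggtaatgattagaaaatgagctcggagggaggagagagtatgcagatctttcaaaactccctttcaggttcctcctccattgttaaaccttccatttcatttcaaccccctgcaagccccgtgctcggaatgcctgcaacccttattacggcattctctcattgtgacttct
Gm52725: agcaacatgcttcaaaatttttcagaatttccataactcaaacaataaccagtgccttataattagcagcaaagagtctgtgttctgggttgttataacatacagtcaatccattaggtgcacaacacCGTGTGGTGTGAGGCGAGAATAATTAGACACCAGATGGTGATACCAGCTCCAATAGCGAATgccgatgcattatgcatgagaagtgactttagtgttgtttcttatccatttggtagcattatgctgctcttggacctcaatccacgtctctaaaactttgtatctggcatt
The forebrain −log10 q was 237.0 at 5330434G04Rik, 149.5 at Gm39767, 144.0 at Gm33797 and 130.4 at Gm52725, with folds of 18.2, 13.0, 14.4 and 15.5 over background. The summits lay 121, 74, 195 and 92 bases before the annotated starts.

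The promoter windows were searched on both strands for 5 short motifs, chosen with the peak values known and none contained in another: TAATTA, a core bound by many homeodomain factors; CAGATG and CAGCTG, E-boxes of the kind bound by proneural bHLH factors; ACAAAG, a core of SOX sites; and CACGTG, another E-box. TAATTA was present in 11 of the 65 windows (16.9%, exact 95% interval 8.76 to 28.3%), against 6.47% of all lncRNA promoter windows and 5.27% of all promoter windows. CAGATG and CAGCTG were each present in 29.2% of the 65 windows (18.6 to 41.8%), against 21.6% and 17.9% of lncRNA windows and 17.1% and 16.2% of all windows. ACAAAG was present in 30.8% (19.9 to 43.4%), against 22.3% of lncRNA windows and 18.7% of all windows, and CACGTG in 1.54% (0.0389 to 8.28%), against 6.04% and 7.30%. For TAATTA the interval over the 65 windows lay above both other shares, and for CAGCTG it did so narrowly (from 18.6%, against 17.9%). For the other 3 motifs the interval held the lncRNA share, though for CAGATG and ACAAAG it lay above the share of all windows. The intervals were not adjusted for the 5 motifs, and the compared windows were not required to lie under a peak. Whether any motif is tied to the strong desert regions was not tested. The window of Gm52725 held TAATTA and CAGATG inside its capitals, 7.5 and 3.5 bases from the summit, and Gm39767 held CAGATG, as CATCTG, 24.5 bases from its summit. Outside the capitals, Gm52725 held another TAATTA 96.5 bases and ACAAAG, as CTTTGT, 128.5 bases from the summit. Gm39767 likewise held CAGCTG 60.5 bases from its summit. No motif of the 5 was in the windows of 5330434G04Rik and Gm33797. The base composition of the 65 windows was close to that of lncRNA promoters, with a median GC content of 47.7% against 48.7%, and below the 52.7% of all windows. A match describes these letters only and is not a shown binding site.

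Of 104 RefSeq microRNA hairpins in deserts, 3 lay inside a strong desert region (2.88%, exact 95% interval 0.599 to 8.20%). A merged region of any kind lay at 16 of the 104, with a forebrain peak at 12 and an ectoderm peak at 10. The interval counts each hairpin singly, although 2 of the 3 are copies of 1 family in 1 desert. MicroRNAs are short RNAs that lower the output of messenger RNAs matching their seed, bases 2 to 8. Mir344f (chr7:62046181-62046248) and Mir344g (chr7:61982289-61982359) lay in the desert between Gm51483 and Ndn, the imprinted Necdin gene, and Mir802 (chr16:93369720-93369816) in the desert between Runx1 and Setd4. Their mature sequences, from RefSeq, are printed with the seed in capitals, because they show that none of the 6 arms shares a seed with another.
mmu-miR-344f-3p: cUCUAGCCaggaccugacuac
mmu-miR-344f-5p: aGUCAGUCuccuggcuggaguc
mmu-miR-344g-3p: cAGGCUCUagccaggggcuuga
mmu-miR-344g-5p: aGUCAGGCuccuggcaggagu
mmu-miR-802-3p: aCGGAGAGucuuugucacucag
mmu-miR-802-5p: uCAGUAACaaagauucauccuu
The 2 regions with Mir344 hairpins had forebrain −log10 q values of 52.8 (Mir344f) and 47.7 (Mir344g) and a fold of 11.1 each, and the region at Mir802 had 22.2 and a fold of 5.83. All 13 annotated Mir344 hairpins lay in that desert. Of the others, Mir344, Mir344-2, Mir344c and Mir344i had forebrain peaks with −log10 q of 74.0 to 108.6, but also a peak in 1 to 4 ectoderm libraries, so the rule did not take them. Mir344b had a peak in 3 ectoderm libraries but not in forebrain, and the remaining 6 lay under no peak. The family consists of similar copies, and the sources used here do not say how reads matching several places were treated, so these peaks are uncertain. Outside hairpins, strong desert regions ended 4511 bp from Mir99a, between Usp25 and Cxadr, and 1304 bp from Mir3072, in the imprinted desert between Rtl1 and Dio3 that holds many microRNAs.

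The strength of the strong desert regions spanned the required minimum to very strong peaks. Their forebrain −log10 q had a median of 34.9, quartiles of 25.98 and 52.7 and a maximum of 266.4, and their fold over background had a median of 7.98 and a range of 3.27 to 19.1. Of the 2556, 714 reached a −log10 q of 50, 162 reached 100 and 12 reached 200. The median width was 689 bp, against 643 bp for the 5153 equally strong forebrain-only regions inside genes and 302 bp for the 15595 weaker forebrain-only regions in deserts. Several summits were listed in 780 of them (30.5%), against 29.8% of those inside genes and 9.32% of weaker desert regions. Both width and summit number thus differed little from strong regions inside genes.

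The share of forebrain-only regions in deserts varied with peak strength. It was 25.3% (exact 95% interval 24.8 to 25.7%) for −log10 q under 5, 21.9% (21.3 to 22.5%) from 5 to 10, 21.4% (20.7 to 22.2%) from 10 to 20 and 21.4% (20.2 to 22.6%) from 20 to 30. It was 24.5% (23.1 to 25.9%) from 30 to 50, 26.5% (24.6 to 28.4%) from 50 to 100 and 32.3% (28.2 to 36.6%) above 100. The 3 classes from 5 to 30 had overlapping intervals and the lowest shares, and the strongest class had the highest. Strong forebrain regions that did have an ectoderm peak lay in deserts in 6.51% of cases (6.20 to 6.83%), and regions with a peak in all 5 libraries in 4.39% (4.07 to 4.72%). Ectoderm-only regions, with a peak in all 4 ectoderm libraries and none in forebrain, did so in 20.2% (19.1 to 21.3%). Forebrain-only regions rest on 1 library. Regions of any strength with a peak in just 1 ectoderm library and none in forebrain lay in deserts in 23.9% (23.6 to 24.2%). The stretches more than 100 kb from a gene make up 28.4% of the genome between the first and last gene of each chromosome. The intervals cover counting error only, and neighbouring regions are not independent.

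**Figure D1:**
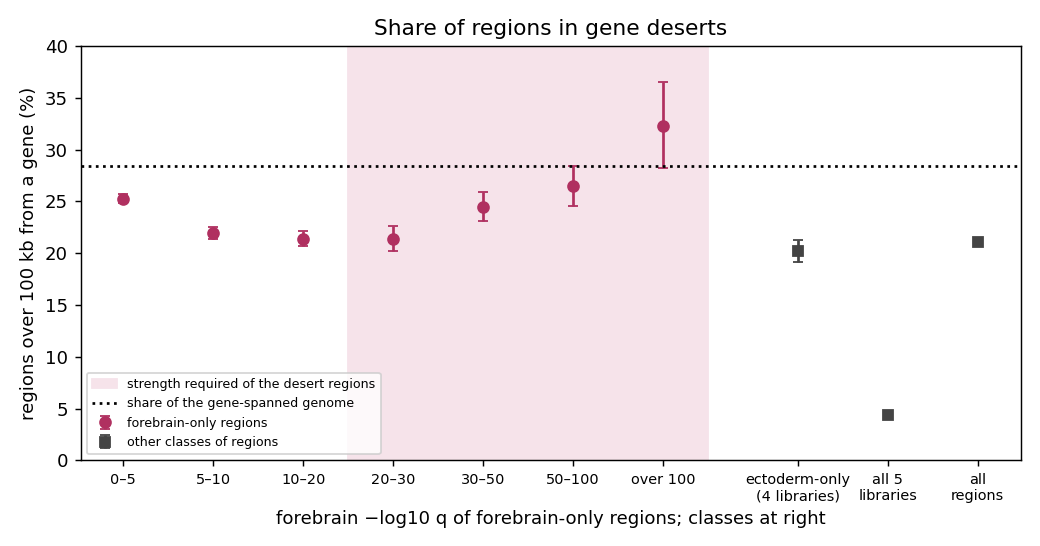
Share of forebrain-only regions in gene deserts (y axis, %, with exact 95% intervals) by forebrain −log10 q (x axis). The strongest class stands highest at 32.3% and the 3 classes from 5 to 30 lowest at 21.4 to 21.9%.

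Equally strong regions of each ectoderm library with no forebrain peak gave desert shares of 20.7% and 22.02% in forelimb and 20.1% and 20.5% in hindlimb, beside 23.9% (23.1 to 24.7%) for forebrain. These −log10 q values belong to lists of different lengths, so the 5 shares do not rest on 1 common scale.

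The distance from a strong desert region to the nearest protein-coding gene had a median of 263.5 kb. Of the 2556 regions, 919 (36.0%) lay 100 to 200 kb from a gene, 1080 (42.3%) lay 200 to 500 kb, 411 (16.1%) lay 500 to 1000 kb and 146 (5.71%) lay farther. Among weaker forebrain-only desert regions 34.1%, 40.9%, 17.5% and 7.55% fell in the same classes. The farthest was chr18:27956351-27957287, 2202 kb from Celf4, a neuronal RNA-binding protein, and 2309 kb from Pik3c3, the lipid kinase of autophagy, with a −log10 q of 41.4. Of the 5 farthest, 3 lay between Celf4 and Pik3c3, with −log10 q of 20.4 to 46.8. The other 2 lay between the protocadherin genes Pcdh20 and Pcdh9, with 21.3 and 23.4.

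Regions on either side of the thresholds had nearly the same value of the measure used. The 5 just inside the strength minimum had −log10 q of 20.01 to 20.02 and lay between Rbm19 and Lhx5, Rps24 and Zmiz1, Ptprd and Tyrp1, Nhs and Reps2, and 1700020N15Rik and Ids. The 5 just outside had 19.956 to 19.998 and lay between Rnf144b and Id4, Fat4 and Intu, Dok5 and Cbln4, Fbxl17 and Fer, and Zfp608 and Gramd3. The 5 just inside the distance limit lay 100.1 to 100.5 kb from Lyplal1, Rspo3, Gm38457, Zfp42 and Pdzrn3. Their other flanks were Tgfb2, Cenpw, Tbc1d1, Adam26b and Ppp4r2. The 5 just outside lay 99.4 to 99.9 kb from Foxd1, Adgrl2, Spats2l, Slc25a13 and Vwc2, and their other flanks were Tmem174, Adgrl4, Maip1, Sem1 and Abca13. One of these, 99.4 kb from Vwc2, had a −log10 q of 108.6.

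The strong desert regions were spread over many deserts but uneven among them. Of 1537 stretches over 200 kb between neighbouring protein-coding genes, 773 (50.3%) held at least 1. Of these, 245 held 1, 348 held 2 to 4, 148 held 5 to 9 and 32 held 10 or more. The 32 richest held 435 regions, 17.0% of all. Regions of 1 desert share their flanking genes and are not replicates of each other.

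The desert between Nr2f1, a nuclear receptor that patterns areas of the cortex, and Arrdc3, an arrestin-like adaptor, held the most, 24 regions in 2.68 Mb, with −log10 q up to 191.8. The desert between Zeb2, a zinc-finger and homeobox repressor used in cortical and interneuron development, and Acvr2a, an activin receptor, held 21 regions in 3.70 Mb. The next was Bcl11a, a zinc-finger factor of projection neurons, to Fancl, a ubiquitin ligase of DNA repair, with 18. Deserts of 17 regions each lay beside the POU factors of neural progenitors and upper-layer neurons Pou3f3 (with Tmem182) and Pou3f2 (with Mms22l). The deserts from Mn1, a transcriptional coregulator, to Cryba4, a lens crystallin, from the adhesion gene Tenm2 to Mat2b, and from Celf4 to Pik3c3 also held 17. Mn1 to Cryba4 is much shorter than the rest at 0.789 Mb, which gives 28.8 regions per Mb of the stretch more than 100 kb from a gene, against 3.46 over all deserts and 9.66 in Nr2f1 to Arrdc3. Zfp608 to Gramd3 and Got2 to Cdh8, a classical cadherin, held 16 each, and Ptbp2, a splicing repressor of young neurons, to Rwdd3 held 15. The remaining 4 of the 15 richest held 14 each: Tmpo to Nedd1, Gm15501 to the teneurin Tenm4, the ephrin receptor Epha7 to the kinase Map3k7, and the bile acid transporter Slc10a2 to the ephrin ligand Efnb2.

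**Figure D2:**
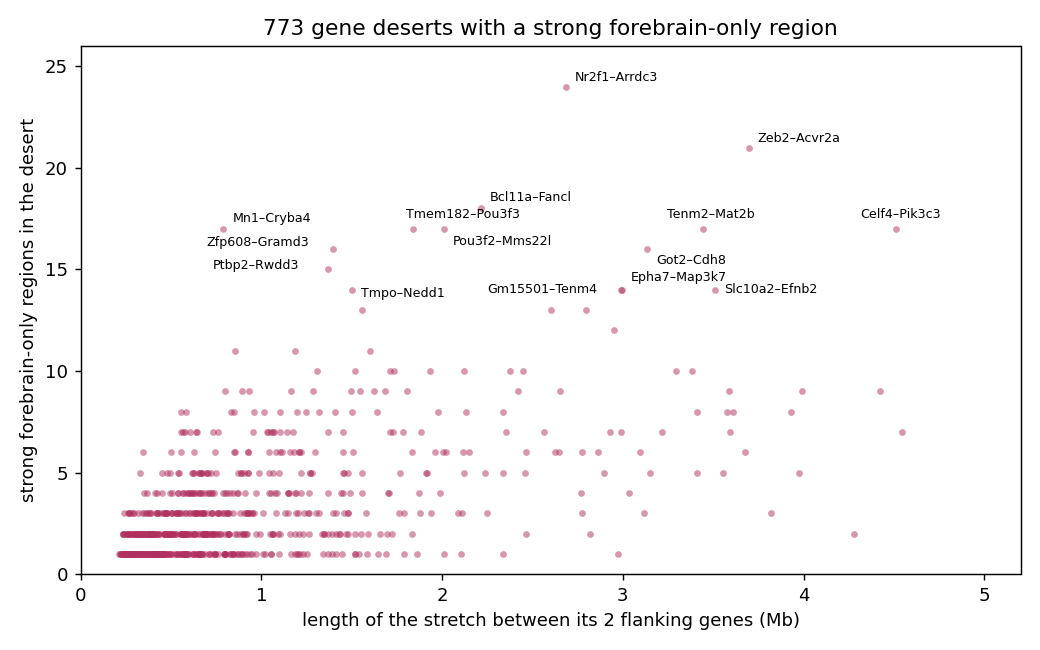
Strong desert regions per desert (y axis) against the length of the stretch between its flanking genes (x axis, Mb), 1 point per desert for the 773 deserts with at least 1. Nr2f1 to Arrdc3 stands highest with 24, and Mn1 to Cryba4 has 17 in 0.789 Mb.

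In 4 of the richest deserts all peaks were set side by side by library. These deserts were picked for their many strong desert regions, so an excess of strong forebrain peaks there follows from the choice. The forebrain list was also the longest genome-wide, with 120280 peak intervals against 51392 to 78075 in ectoderm. Between Nr2f1 and Arrdc3 the forebrain list had 108 peaks, 40 of them with −log10 q of 20 or more, against 45 and 56 in forelimb ectoderm and 26 and 33 in hindlimb ectoderm, of which 1 to 4 reached 20. Between Zeb2 and Acvr2a forebrain had 136 peaks and 31 strong ones, against 50 to 65 peaks and 1 to 14 strong ones in ectoderm. Between Bcl11a and Fancl forebrain had 123 peaks and 29 strong ones, against 30 to 57 peaks and 0 to 12 strong ones. Between Mn1 and Cryba4 forebrain had 86 peaks and 27 strong ones, against 12 to 22 peaks and 0 to 3 strong ones. Each of these deserts therefore also held ectoderm peaks, and strong ones between Nr2f1 and Arrdc3 and between Zeb2 and Acvr2a in every ectoderm library.

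**Figure D3:**
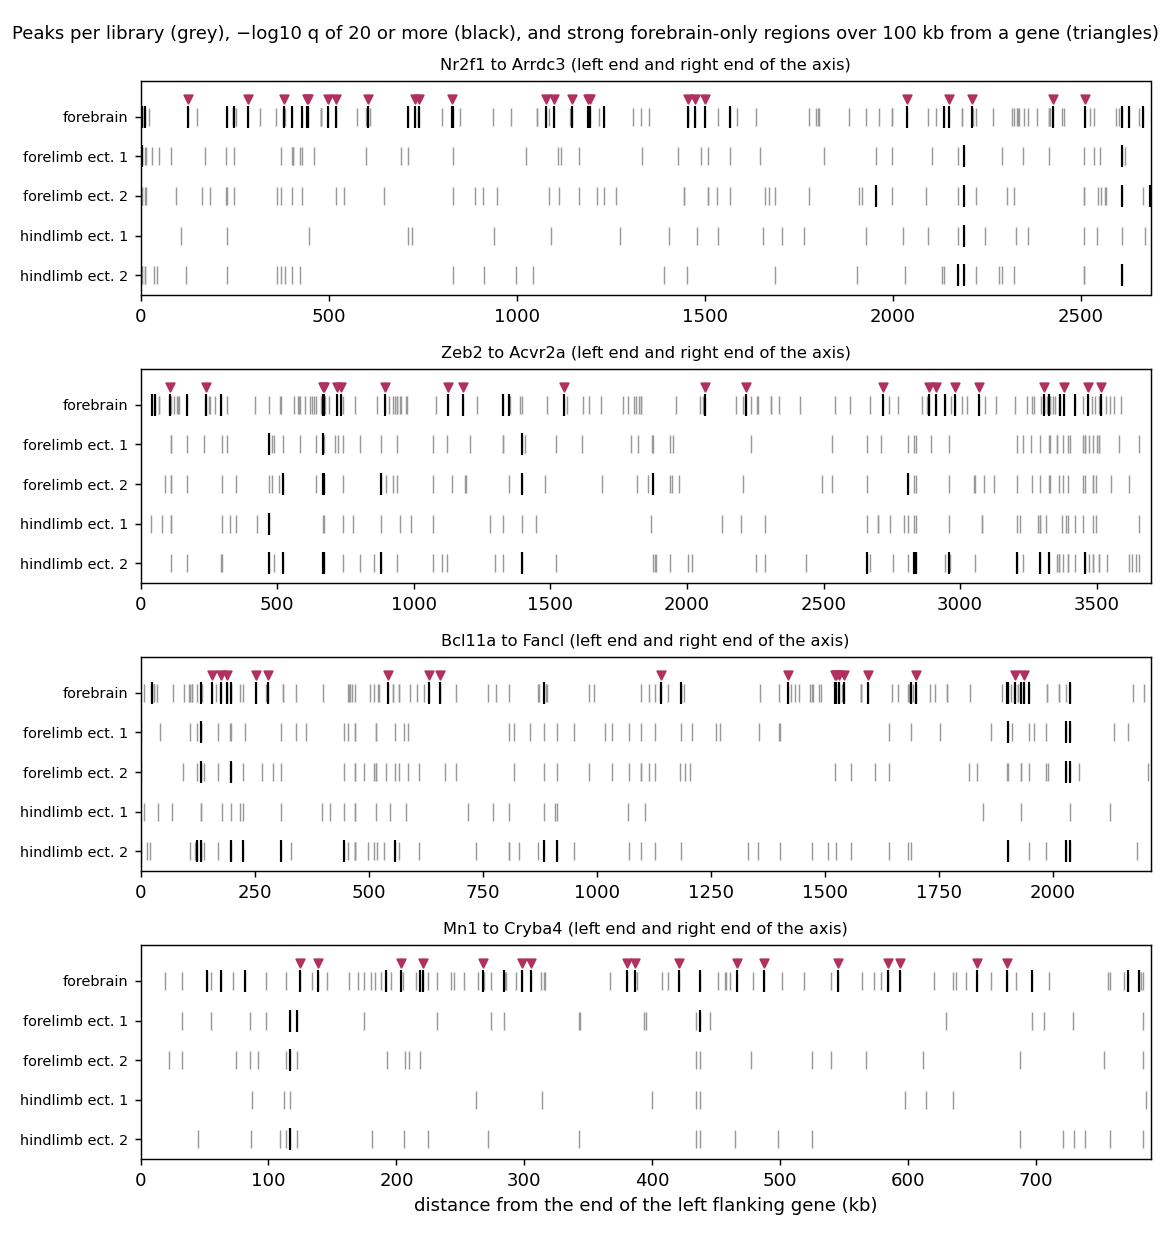
Peaks of each library in 4 deserts, with distance from the first flanking gene on the x axis (kb) and 1 row per library, forebrain at the top; triangles mark strong desert regions. Forebrain has 108 peaks between Nr2f1 and Arrdc3 and the ectoderm libraries 26 to 56. The deserts were picked for their many strong desert regions.

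The number per Mb was lower in longer deserts. Deserts of 0.2 to 0.5 Mb held 4.57 strong desert regions per Mb, and those over 3 Mb held 2.26. Weaker forebrain-only regions had 24.3 and 17.7 per Mb in these classes, and ectoderm-only regions 2.03 and 0.956 per Mb, so both were also sparser in the longest deserts. Chromosome X held 60 regions, 1.03 per Mb of desert, against 2.504 (chromosome 15) to 5.43 (chromosome 13) on the autosomes. Weaker forebrain-only regions (4.48 per Mb) and ectoderm-only regions (0.275 per Mb) were also at their lowest on X.

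Many deserts held regions of both tissues. Ectoderm-only regions lay in 549 of the 1537 deserts, and strong desert regions in 773 (50.3%). Both kinds lay in 426 deserts, which is 55.1% of deserts with a strong desert region and 77.6% of deserts with an ectoderm-only one. Desert length was not matched, and its part in this overlap was not tested. Deserts with a strong desert region had a median length of 0.663 Mb, against 0.293 Mb for those without, and contained 76.6% of all bases more than 100 kb from a gene.

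Neighbouring strong desert regions of a desert lay a median of 83.5 kb apart. Of the 1783 gaps, 325 were 20 kb or less, and these joined 595 regions (23.3%) into 270 clusters, 42 of them with 3 or more. The most regions in a cluster was 5, found between Atp5g3 and Lnpk over 30.2 kb, near the HoxD genes, and between Lrfn2 and Mocs1 over 49.9 kb. A tight cluster of 3 lay over 9.12 kb between Rcn1 and Pax6, a factor of eye and cortical progenitors, with −log10 q up to 101.5 and 145.3 kb from Pax6. The clusters named here were picked by size or flanking gene after their values were seen.

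The 20 regions with the highest −log10 q lay in 18 deserts. The highest, chr3:17616381-17617270 with 266.4 and a fold of 16.7, lay between Ythdf3, a reader of methylated RNA, and Cypt12. The nearest ectoderm peak lay 0.574 kb away in 1 hindlimb library, and 19.4 to 42.8 kb away in the other 3. The second, chr5:85239383-85240208 with 256.1, lay 772.2 kb from the centromere protein gene Cenpc1 and 772.8 kb from Gm42163. The third, chr9:92930243-92931123 with 243.3, lay between Plod2, a collagen-modifying hydroxylase, and Dipk2a, and its nearest ectoderm peaks were 19.04 to 106.3 kb away. The fourth, with 237.0, is the region at the promoter of 5330434G04Rik printed above, between Magee1 and Cypt2. The fifth, chr3:50014253-50014927 with 232.3, lay between the protocadherin Pcdh18 and the cystine transporter Slc7a11, with a peak in each ectoderm library 8.98 to 9.34 kb away.

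A pair of deserts held 2 of the 20 strongest regions each. Between Tmem161b and Ccnh, a cyclin, the values were 213.2 and 194.1. Between the kinase Prkd1 and G2e3 they were 212.5 and 177.4. The neighbouring desert from Mef2c, a factor of neuronal maturation, to Tmem161b held 6 regions. The desert of Prl5a1 and Sox4 gave 186.5, that of Nr2f1 and Arrdc3 191.8, and that of Gm11677 and Sox9 210.9. The remaining 8 lay between Cldn23 and Prag1, the endothelin receptor Ednrb and the sensory neuron factor Pou4f1, the ETS factor Etv1 and Arl4a, the potassium channel Kcnn2 and Trim36, the BMP co-receptor Rgmb and Gm51425, the microtubule regulator Stmn4 and the adrenergic receptor Adra1a, Tex29 and A230072I06Rik, and the immune checkpoint receptor Pdcd1 and Fam174a, with −log10 q of 172.2 to 217.5. Nearby ectoderm peaks varied, from 0.128 kb in 1 forelimb library at the first region between Tmem161b and Ccnh to 40.1 kb or more in every library at the region between Etv1 and Arl4a.

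Ectoderm peaks close to the strong desert regions were common. The median distance to the nearest peak was 17.9 and 15.9 kb in the forelimb libraries and 24.8 and 16.9 kb in the hindlimb libraries. Over all 4 libraries together it was 6.58 kb, against 4.44 kb for the strong forebrain-only regions inside genes and 6.70 kb for weaker desert ones. An ectoderm peak lay within 1 kb of 268 regions (10.5%), against 15.4% of strong forebrain-only regions inside genes and 12.1% of weaker desert ones. No ectoderm peak lay within 100 kb of 19 (0.743%), against 0.155% and 0.462% in these 2 sets. The hindlimb library with the longest distances was also the one with the fewest peaks, 51392. Another forebrain peak lay a median of 7.69 kb away.

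The strong desert regions were flanked by 1372 protein-coding genes (6.34% of 21631), of which 95 flanked 10 or more. Of 30 dorsal forebrain progenitor and neurogenesis factors, 20 flanked a strong desert region, and of 30 ventral forebrain, eye field and hypothalamus factors, 15 did. Of 30 synapse, adhesion and guidance genes, 24 did. Of 30 epidermis and skin appendage genes, 13 did, of 20 endothelium, blood and vessel wall genes 4, and of 20 cranial mesenchyme and cartilage genes 7. A gene can be a flank only if it borders a desert. Of list genes that do, those that flanked a strong desert region were counted in the same order of lists. They numbered 20 of 21, 15 of 17, 24 of 26, 13 of 18, 4 of 6 and 7 of 11. Of the 2598 genes of all kinds that border a desert, 52.8% did. Longer deserts held a strong desert region more often, in 30.4% of those of 0.2 to 0.5 Mb and 82.8% of those of 1 to 2 Mb. Desert length was not matched between the lists and all genes, and its part in these shares was not tested.

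**Figure D4:**
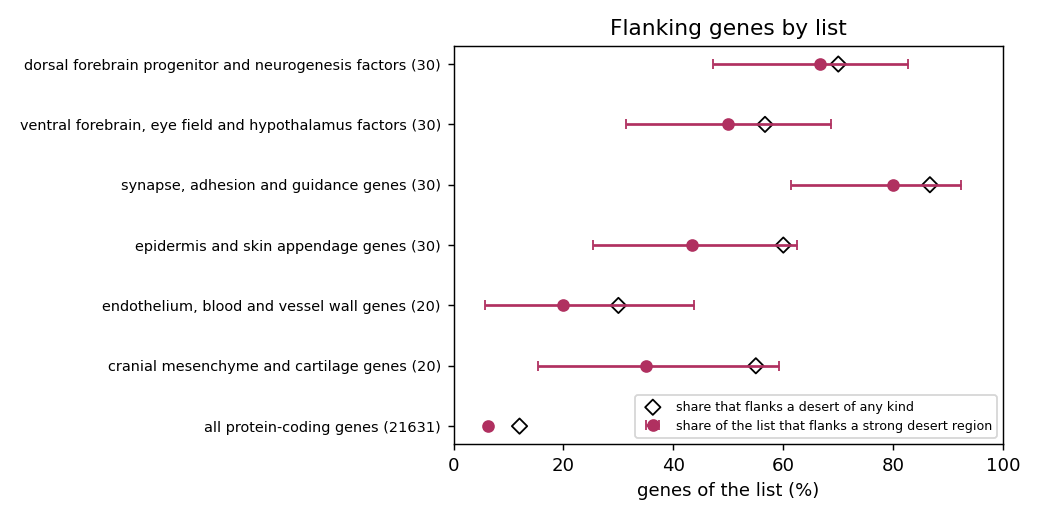
Share of each gene list (x axis, %) that flanks a strong desert region (filled circles, with exact 95% intervals) and share that borders any desert (open diamonds). Synapse, adhesion and guidance genes stand highest with 24 of 30, and all protein-coding genes are at 6.34%.

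Among the dorsal factors, Nr2f1 flanked 24 regions, Bcl11a 18, Pou3f2 and Pou3f3 17 each, and Sox11, a SOX factor of young neurons, 16. The progenitor factor Sox2 flanked 14, Nr2f2, the second COUP nuclear receptor, 11, Mef2c 10, Sox4 9 and the bHLH inhibitor Id4 8. Pou3f1 flanked 5, Pax6, Sox3 and Tcf4 3 each, Bcl11b 2, and Emx2, Eomes and Hes1 1 each. The strongest region beside each of these genes had a −log10 q between 29.0 (Bcl11b) and 191.8 (Nr2f1), and the nearest lay between 101.8 kb (Id4) and 393.7 kb (Bcl11b) away.

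Among the ventral and other forebrain factors, Isl1, a LIM factor of striatal neurons, flanked 12 regions, the Iroquois homeobox gene Irx1 10, the TALE homeobox gene Meis1 8, Irx3 7 and the zinc-finger factor Sp8 5. Meis2 and the zinc-finger factor Zic1 flanked 4 each. Otx2 and Sim1 flanked 2 each, and Dlx6, Ebf1, Tcf7l2 and Zic4 1 each. The strongest region beside Isl1 had a −log10 q of 139.1 and that beside Zic1 131.8. Both lists of factors together flanked 241 strong desert regions, and in 129 of these (53.5%, exact 95% interval 47.0 to 60.0%) the factor was the nearer of the 2 flanking genes. This interval counts each region singly although regions of 1 desert share their flanks, so it is too narrow.

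Among adhesion and guidance genes, the cadherin Cdh8 flanked 23 regions, the adhesion and guidance protein Flrt2 22, the ephrin receptor Epha7 20, the protocadherin Pcdh17 15, Pcdh7 13, Lrrc4c and Pcdh9 11 each, and Cdh18 and the guidance ligand Slit2 10 each. Cdh2, Efna5 and Epha3 flanked 9 each, Cdh10, Pcdh10, the Slit receptor Robo1, and the synapse organisers Slitrk1 and Slitrk5 8 each, and Slitrk6 5. Epha5 and Robo2 flanked 3 each, Lrrtm4 2, and Sema3a and Sema3d 1 each. In this list 79 of 200 regions with 1 list gene as flank (39.5%, 32.7 to 46.6%) lay nearer to it than to the other flank. Many of the 200 share a desert and its flanks, so the interval is too narrow, and a preference for either flank was not tested.

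Among the 13 genes of the skin list that flanked a strong desert region, Sox9, a factor of cartilage, hair follicle and glia, flanked 7, Klf4 6, the signal Bmp4 and the zinc-finger factor Gata3 5 each, Bmp2, Msx2 and Runx1 3 each, Lef1, Tfap2a and Tfap2b 2 each, and Klf5, Satb1 and Tfap2c 1 each. Tfap2a, the AP-2 factor of surface ectoderm and neural crest, had no gene-end peak in forebrain and one in all 4 ectoderm libraries. Limits wider than 1 kb were not examined for this gene. It flanked a forebrain-only region with a −log10 q of 115.6, which gives position only. Among vessel, blood and mesenchyme genes, the endothelial cadherin Cdh5 flanked 8, Ets1 7, Sox6 3, Tbx18 2, and Alx1, Pax3 and Sox5 1 each. Sox9, Runx1 and Tbx18 stand on more than 1 list.

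Flanking genes had a gene-end peak more often than all protein-coding genes did, in every library. In forebrain 78.6% of the 1372 flanking genes had one (exact 95% interval 76.3 to 80.7%), against 64.1% of the 1226 genes that border only deserts without a strong desert region and 65.4% of all protein-coding genes. In forelimb ectoderm the shares were 71.7% and 70.5%, against 60.8% and 58.2% of all genes, and in hindlimb ectoderm 63.2% and 71.9%, against 51.9% and 60.4% of all genes. Flanking genes were above all genes in all 5 libraries, and whether the gap differed between tissues was not tested. A gene-end peak that forebrain had and every ectoderm library lacked was found for 62 flanking genes (4.52%, 3.48 to 5.76%), against 4.13% of all genes. Within 5 kb in place of 1 kb the counts were 34 flanking genes (2.48%) and 2.56% of all genes. The share with a forebrain gene-end peak was 76.8% for genes flanking 1 region, 78.3% for 2 to 4, 80.7% for 5 to 9 and 82.1% (72.9 to 89.2%) for 10 or more, with overlapping intervals. From 1 region to 10 or more, the share was also higher in each ectoderm library. It went from 66.75% to 78.9% and from 68.25% to 78.9% in forelimb, and from 61.5% to 72.6% and from 69.75% to 77.9% in hindlimb.

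**Figure D5:**
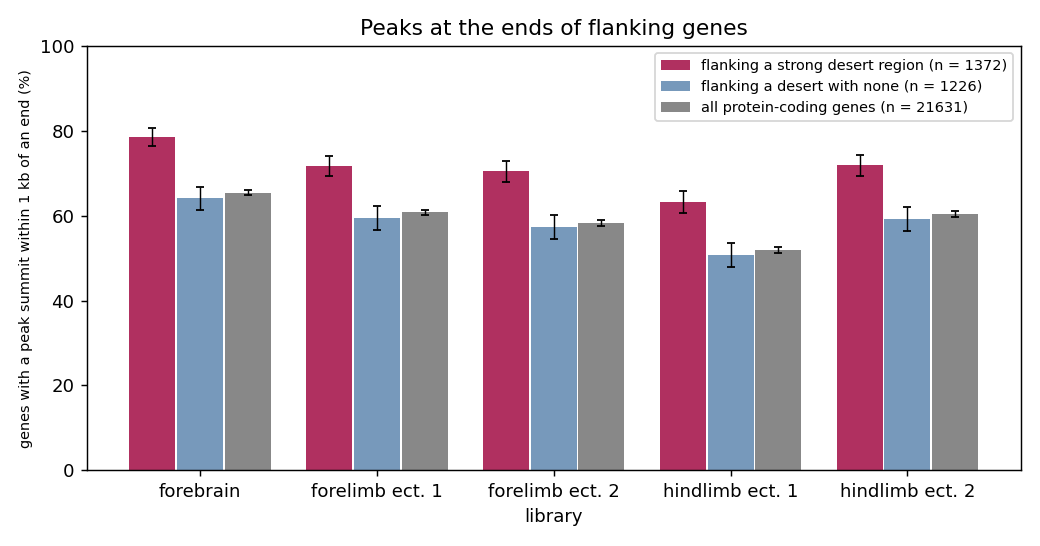
Share of protein-coding genes with a peak within 1 kb of a gene end (y axis, %, with exact 95% intervals) in each library, for genes that flank a strong desert region, genes that border only other deserts, and all genes. Flanking genes stand highest in all 5 libraries, with 78.6% in forebrain.

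Of the 30 flanks of the 15 richest deserts, Nr2f1 and Zeb2 had a gene-end peak in forebrain but in no library of ectoderm. Among list genes that flank a strong desert region, Mef2c, Pax6, Otx2, Tfap2c and Cdh5 showed the same pattern. For all of them it depends on the limit of 1 kb: within 5 kb of a gene end each of the 4 ectoderm libraries had a peak at Nr2f1, Mef2c, Tfap2c and Cdh5, and 2 had one at Zeb2, Pax6 and Otx2. At Nr2f1 a forebrain peak 2.95 kb from the gene (−log10 q 103.1) had ectoderm peaks beside it in 3 libraries, with 23.9 and 13.7 in forelimb and 18.7 in hindlimb. In contrast Bcl11a, Pou3f2, Pou3f3, Mn1, Tenm2 and Epha7 had one in all 5 libraries. Cdh8 and Cryba4 had none in any library.

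Of the strong desert regions, 81.8% lay in no annotated gene, and 457 (17.9%, exact 95% interval 16.4 to 19.4%) lay inside a long non-coding RNA gene. The share was 14.1% for weaker forebrain-only and 14.9% for ectoderm-only desert regions, and such genes cover 9.84% of the desert bases. A midpoint within 1 kb of an lncRNA gene's end was found for 139 strong desert regions (5.44%, 4.59 to 6.39%), against 2.59% (2.35 to 2.85%) of the weaker and 2.49% (1.65 to 3.60%) of the ectoderm-only ones. Among lncRNA genes, Gm32647 (chr7:94042496-95326426, beside Tenm4) held 9 regions, 2610307P16Rik (chr13:28460034-28885422, beside Sox4) and 5730522E02Rik (chr11:25616846-26210576, between Bcl11a and Fancl) held 8 each, and Gm34196 (chr13:84573766-84906191, between Tmem161b and Ccnh) held 5. These genes are long, at 332.4 to 1284 kb.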

How the data were processed

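ATAC-seq peak lists of 5 libraries, called per library, were used. Tools in the submitters' processing notes are MACS2 2.1.1.20160309, Bowtie2 2.3.5, cutadapt 1.16, bedtools and Picard, with the mm10 build. Read shifting, read extension and the treatment of reads with several matches are not given in these sources. Each deposited row holds, from the authors, a peak's interval and summit, a score (not used), −log10 of its p and q, and a fold (a ratio over background). The lists hold no read totals, so depth is unknown. Intervals sharing at least 1 bp were merged into regions, with Python 3.11.15, pandas 2.3.3 and scipy 1.17.1. Genes, promoters and microRNAs came from RefSeq (GRCm38.p6). Its gene table gives gene ends without strand. Shares carry exact Clopper-Pearson 95% intervals for counting error, and no test was run. The code was checked on simulated intervals.

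Named regions were the 20 strongest, the 5 farthest from a gene and the 5 on each side of each threshold. Named genes were their flanks, those of the 15 richest deserts and list genes that flank a region; other names were chosen after their values were seen. Some list genes are counted but not reported here by name. The regions, thresholds and 6 gene lists were chosen with earlier results of these data known. Alternatives changed the strength and distance limits, the gene set, the ectoderm peaks and the libraries counted.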

Additional observations from a re-analysis of the deposited data

How the results depend on the processing

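The number of strong desert regions was 5035 with a −log10 q minimum of 10, 1593 with 30, 1637 with a distance over 200 kb and 496 when all annotated genes counted, against 2556. The desert share of strong forebrain-only regions was 22.6% and 25.8% with minimums of 10 and 30, and 31.7% and 15.3% with distances over 50 and 200 kb. It was 4.64% with all annotated genes, 22.4% when ectoderm peaks with −log10 q under 5 did not count, and 25.1% with no ectoderm peak within 1 kb, against 23.9%. Deserts with a region numbered 474 over 200 kb and 329 with all annotated genes, against 773. With weak ectoderm peaks not counted, the nearest ectoderm peak lay a median of 20.0 kb away, against 6.58 kb. The share of flanking genes with a forebrain gene-end peak was 85.5% and 90.1% for gene ends within 2.5 and 5 kb, against 78.6%. For all protein-coding genes it was 72.5% and 77.5% at these limits. With all annotated genes the share was 29.9%, but the flanks were then genes of every kind. That value is therefore not comparable with 78.6%, and the share over all annotated genes was not computed. The changes in the numbers of regions and deserts follow from the limits themselves, and the cause of the changes in shares was not tested. Leaving out 1 ectoderm library gave 2626 to 2719 regions, desert shares of 23.0 to 23.9%, 784 to 797 deserts, distances of 7.74 to 8.36 kb and gene-end shares of 78.5 to 78.7%. The desert share was 23.0% without forelimb replicate 1 and also without hindlimb replicate 2, below its counting interval of 23.1 to 24.7%. Joining peaks up to 500 bp apart, using the strongest summit, direct overlap and autosomes alone moved no share beyond its counting interval. No number of regions or deserts changed by over 1.5 times there. The median distance has no counting interval and was 6.41 to 7.07 kb in these settings, against 6.58 kb. A distance counted as moved only from a change of 4.05 kb, the standard deviation of the 4 library medians. No paired analysis was possible because forebrain has 1 library and no result comes from a test. The forebrain values have no replicate, and the list lengths of the ectoderm libraries limit which regions count as forebrain-only.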
